A study of Mus musculus with 8 samples.

Results

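The H4K12la peaks described here lie in the spaces between protein-coding genes of the mouse genome. A peak was a member when its whole interval was more than 20 kb outside the span of every protein-coding gene of the RefSeq annotation of GRCm38, on chromosomes 1 to 19 and X. Of the 230827 peaks in all 8 lists, 22450 met this rule (9.73%). Merged across libraries wherever peaks overlapped by at least 1 base, they formed 8229 far regions, against 65142 regions formed by all other peaks. The far regions had a median width of 496 bp, between 172 and 3688 bp, and covered 5.63 Mb. The territory that lies more than 20 kb from all 21631 coding genes used makes up 1188.25 of the 2612.17 Mb between the outermost annotated genes, which is 45.5%, so that its share of peaks was well below its share of sequence.

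H4K12la was profiled in 4 groups of 2 libraries, namely total brain cells from WT mice and from 5XFAD mice, and microglia from either genotype. 5XFAD mice are a transgenic model of Alzheimer's disease in which neurons express mutated human amyloid precursor protein and presenilin under the Thy1 promoter. Brains without cerebellum were dissociated and cleared of debris, and microglia were taken out with beads carrying antibody to CD11b, a surface protein that other myeloid cells share. No source used here gives the age, sex or strain of the mice, and none says that replicates are separate animals, so that the p-values measure only the spread between these libraries, which may be technical.

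Histone lactylation is a modification in which a lactyl group, derived from lactate, is attached to a lysine of a histone tail. H4K12la marks lysine 12 of histone H4 and has been found, like histone acetylation, at active promoters. Active chromatin far from coding genes is known to include enhancers, which can act on a promoter over long distances, and the promoters of long non-coding RNAs and of the primary transcripts of miRNAs. CUT&Tag tethers the Tn5 transposase to an antibody and cuts the marked chromatin in place.

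Some far regions covered an annotated start site of a non-coding gene, and the promoters that differ most in the libraries that marked them are shown here. RefSeq gives 4486 promoter windows of 300 bases, from 250 before to 50 after the start, for 3674 non-coding genes whose whole span lies more than 20 kb from coding genes. The sequences are from RefSeq, build GRCm38.p6, written from 5′ to 3′ on the strand of the gene, and capitals mark CG dinucleotides. The next 4 promoters had a peak in all 8 libraries. They are those of Gm29998 at chr19:33391551-33391850 on the plus strand, 4930578M01Rik at chr15:98985715-98986014 on the plus strand, 4933407K13Rik at chrX:75764650-75764949 on the minus strand, and Mir99ahg at chr16:77329078-77329377 on the plus strand. The first 2 of these had the highest mean score percentile of that set, and the others are the lncRNA of the Dxz4 macrosatellite and a host transcript of miRNAs.
Gm29998: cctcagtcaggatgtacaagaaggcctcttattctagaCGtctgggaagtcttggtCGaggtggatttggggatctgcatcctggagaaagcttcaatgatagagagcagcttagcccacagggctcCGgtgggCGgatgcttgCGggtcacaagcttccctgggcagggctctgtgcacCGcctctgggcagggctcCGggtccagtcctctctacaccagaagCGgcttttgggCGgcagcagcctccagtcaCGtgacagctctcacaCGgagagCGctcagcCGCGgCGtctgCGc
4930578M01Rik: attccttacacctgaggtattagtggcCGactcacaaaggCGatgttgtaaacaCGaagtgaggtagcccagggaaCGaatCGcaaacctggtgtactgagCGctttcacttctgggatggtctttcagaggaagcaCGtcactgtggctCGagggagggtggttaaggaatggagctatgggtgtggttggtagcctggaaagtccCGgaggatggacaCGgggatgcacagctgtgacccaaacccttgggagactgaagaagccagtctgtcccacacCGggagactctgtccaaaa
4933407K13Rik: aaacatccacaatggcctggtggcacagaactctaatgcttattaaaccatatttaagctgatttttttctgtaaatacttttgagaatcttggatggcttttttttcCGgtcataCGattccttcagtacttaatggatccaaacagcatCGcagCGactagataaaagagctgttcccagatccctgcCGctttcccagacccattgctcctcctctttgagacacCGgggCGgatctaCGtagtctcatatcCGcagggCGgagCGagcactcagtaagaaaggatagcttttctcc
Mir99ahg: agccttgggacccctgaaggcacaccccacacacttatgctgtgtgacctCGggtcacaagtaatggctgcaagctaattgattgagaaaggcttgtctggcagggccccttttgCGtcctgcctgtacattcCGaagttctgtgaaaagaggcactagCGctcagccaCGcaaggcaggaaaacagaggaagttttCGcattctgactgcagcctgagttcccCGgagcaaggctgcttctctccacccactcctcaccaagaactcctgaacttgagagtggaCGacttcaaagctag

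The 2 promoters with the highest mean score percentile among those with a peak in all 4 microglia libraries but in no list of total cells belonged to Gm46162, at chr1:151250491-151250790 on the minus strand, and Gm35154, at chr10:44598649-44598948 on the plus strand. They held 9 and 2 CG dinucleotides. This holds for the window of 300 bases alone, since the merged region at Gm46162 also had peaks in both 5XFAD total cell libraries, and that at Gm35154 in total cells 5XFAD 1.
Gm46162: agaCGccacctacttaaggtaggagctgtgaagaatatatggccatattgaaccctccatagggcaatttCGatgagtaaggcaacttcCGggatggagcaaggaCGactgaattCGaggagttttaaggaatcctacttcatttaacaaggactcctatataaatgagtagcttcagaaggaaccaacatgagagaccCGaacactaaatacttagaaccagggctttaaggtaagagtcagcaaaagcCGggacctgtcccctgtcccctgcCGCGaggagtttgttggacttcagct
Gm35154: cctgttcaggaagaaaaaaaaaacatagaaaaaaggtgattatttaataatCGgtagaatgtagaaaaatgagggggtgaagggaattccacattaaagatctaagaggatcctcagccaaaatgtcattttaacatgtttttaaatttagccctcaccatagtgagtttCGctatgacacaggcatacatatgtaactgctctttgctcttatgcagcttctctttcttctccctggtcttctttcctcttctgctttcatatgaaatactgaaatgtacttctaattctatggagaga

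Only 2 promoters had a peak in all 4 total cell libraries and in no microglia library. They were those of Mir100hg, host transcript of miR-100 and related miRNAs, at chr9:41376276-41376575 on the plus strand, and Gm34507, at chr17:4908072-4908371 on the plus strand. They held 15 and 49 CG dinucleotides.
Mir100hg: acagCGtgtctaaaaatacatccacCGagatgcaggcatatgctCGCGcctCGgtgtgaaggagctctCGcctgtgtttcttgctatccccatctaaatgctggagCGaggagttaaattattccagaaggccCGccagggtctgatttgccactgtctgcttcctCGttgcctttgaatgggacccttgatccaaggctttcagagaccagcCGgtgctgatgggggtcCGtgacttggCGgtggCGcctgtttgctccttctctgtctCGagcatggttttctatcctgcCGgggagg
Gm34507: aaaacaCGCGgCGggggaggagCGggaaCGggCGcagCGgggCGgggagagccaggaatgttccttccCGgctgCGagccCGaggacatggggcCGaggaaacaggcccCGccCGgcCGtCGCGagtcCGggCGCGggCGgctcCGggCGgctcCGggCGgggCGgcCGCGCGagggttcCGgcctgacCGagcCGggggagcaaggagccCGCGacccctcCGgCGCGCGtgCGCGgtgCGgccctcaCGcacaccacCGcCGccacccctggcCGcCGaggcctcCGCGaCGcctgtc

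Of the 245 miRNA genes that lie this far from coding genes, 7 were overlapped by a far region, and 227 of the 245 are in the RefSeq sequence table. Mature miRNAs of 3 such loci are shown from RefSeq, 5′ to 3′, with the seed, bases 2 to 8, in capitals. miR-29b-3p lies at chr6:31063025-31063047 and miR-29a-3p, of the neighbouring gene Mir29a, at chr6:31062673-31062694, both on the minus strand, and they share a seed. miR-100-5p lies at chr9:41531437-41531458 and let-7b-5p at chr15:85707325-85707346, both on the plus strand.
mmu-miR-29a-3p: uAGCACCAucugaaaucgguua
mmu-miR-29b-3p: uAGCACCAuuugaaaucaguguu
mmu-miR-100-5p: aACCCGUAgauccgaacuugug
mmu-let-7b-5p: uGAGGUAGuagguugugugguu

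Far peaks made up a similar share of every list. Total cell libraries held 2482 and 2223 far peaks in WT and 3080 and 1971 in 5XFAD, and microglia libraries held 2229 and 3324 in WT and 3015 and 4126 in 5XFAD. As a share of each list this was 9.84% and 9.88% in WT total cells, 9.36% and 8.66% in 5XFAD total cells, 10.01% and 9.93% in WT microglia, with 10.1% and 9.88% in 5XFAD microglia. The numbers overlapped between the preparations, whereas the shares of the microglia lists all lay above those of total cells, although the closest pair both round to 9.88%. The mean share was 9.97% ± 0.0846 (SD, n = 4) in microglia and 9.43% ± 0.568 (SD, n = 4) in total cells, a difference of 0.54 percentage points (exact two-sided permutation test, p = 0.0286, adjusted p = 0.0686 over 12 tests by Benjamini-Hochberg). That p is the smallest that 4 libraries against 4 can give. The difference was -0.0799 points when the distance was set to 50 kb and -0.0928 points when all annotated genes were avoided, and without total cells 5XFAD 2 it was 0.284. The mean number differed by 734.5 peaks (exact two-sided permutation test, p = 0.2, n = 4 and 4). These are bulk libraries, in which fewer cells of a type and less signal per cell cannot be told apart. Depth is unknown, since the lists hold no read counts, and a missing peak means only that none was listed.

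**Figure D1:**
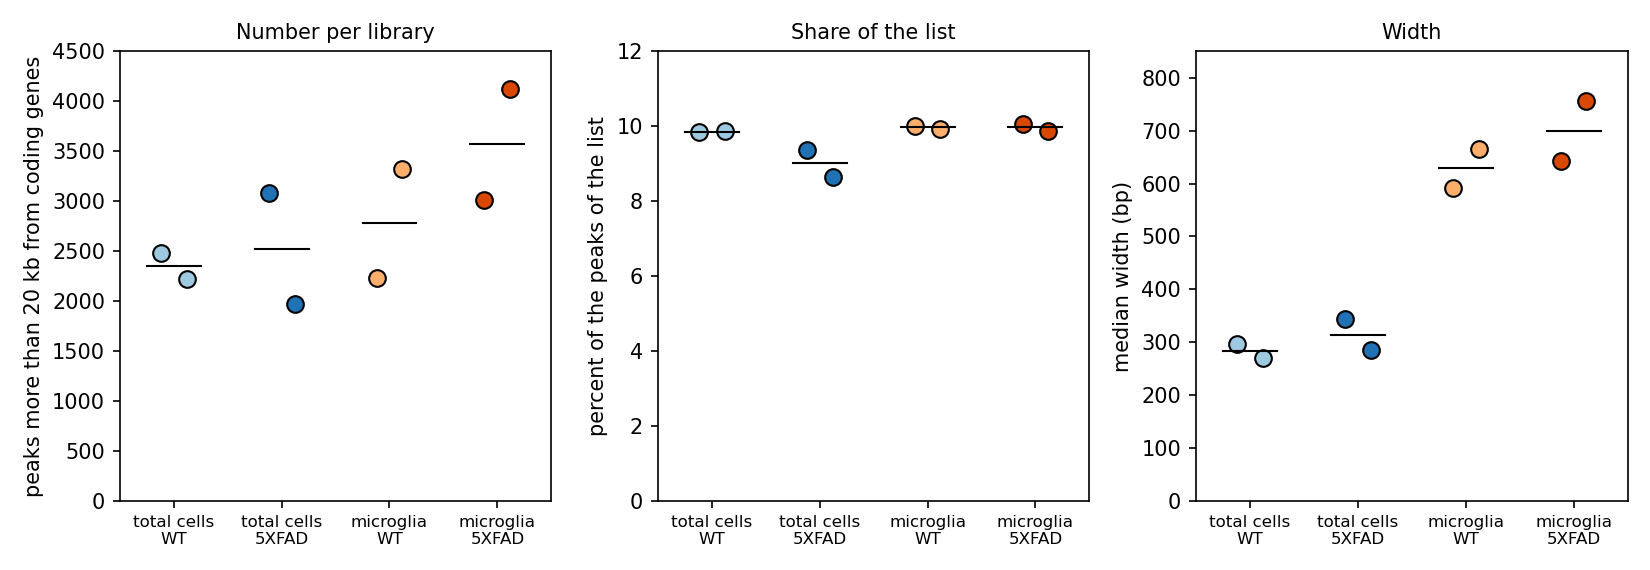
Number of peaks more than 20 kb from protein-coding genes, their share of each list in percent, and their median width in bp, by group on the x axis. Each point is 1 library and each bar the mean of 2; the share lies between 8.66% and 10.1% in all 8 libraries, while the widths of the 4 microglia libraries, 592 to 755.5 bp, lie above all total cell libraries, 269 to 343.5 bp.

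Far peaks of microglia were more than 300 bp wider than those of total cells. The median width was 297 and 269 bp in WT total cells, 343.5 and 284 bp in 5XFAD total cells, 592 and 666 bp in WT microglia and 642 and 755.5 bp in 5XFAD microglia, and the preparations did not overlap. The means were 663.9 ± 68.4 bp for microglia against 298.4 ± 32.2 bp for total cells (SD, n = 4 each; exact two-sided permutation test, p = 0.0286, adjusted p = 0.0686). Other peaks showed the same order, with medians of 579 to 732 bp for microglia against 289 to 368 bp for total cells.

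Set against the other peaks of the same list, far peaks were a little wider in microglia and a little narrower in total cells. The difference in median width, far minus other, was -23 and -20 bp in WT total cells, -24.5 and -31 bp in 5XFAD total cells, 13 and 20.5 bp in WT microglia, and 15 and 23.5 bp in 5XFAD microglia. The mean was 18 ± 4.85 bp for microglia against -24.6 ± 4.64 bp for total cells (SD, n = 4 each), so the preparations were 42.6 bp apart (exact two-sided permutation test, p = 0.0286, adjusted p = 0.0686). Over all 8 libraries together the mean difference was -3.31 bp, positive in 4 of 8 (exact two-sided sign-flip test, p = 0.695).

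The score gave the same division. The deposited score of a peak was turned into its percentile within its own list, in which the median of other peaks lay between 49.6 and 51.2 in every library. The median percentile of far peaks was 43.4 and 43.1 in WT total cells, 46.4 and 44.6 in 5XFAD total cells, 51.9 and 50.3 in WT microglia, with 49.9 and 51.1 in 5XFAD microglia. Far peaks of total cells therefore ranked below the middle of their lists, and those of microglia at or just above it. The means were 50.8 ± 0.909 in microglia and 44.4 ± 1.49 in total cells (SD, n = 4 each; exact two-sided permutation test, p = 0.0286, adjusted p = 0.0686). Measured against other peaks, the mean difference was 1.03 ± 0.883 in microglia and -6.44 ± 1.63 in total cells, which were 7.46 apart (exact two-sided permutation test, n = 4 and 4, p = 0.0286, adjusted p = 0.0686). Over all 8 libraries the mean difference was -2.70, positive in 3 of 8 (exact two-sided sign-flip test, p = 0.125, adjusted p = 0.245). The 2 tests of far minus other peaks between preparations, in width and in percentile, were added after the values were seen. The sign-flip tests over all 8 libraries were planned. No test passed 0.05 after adjustment.

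**Figure D2:**
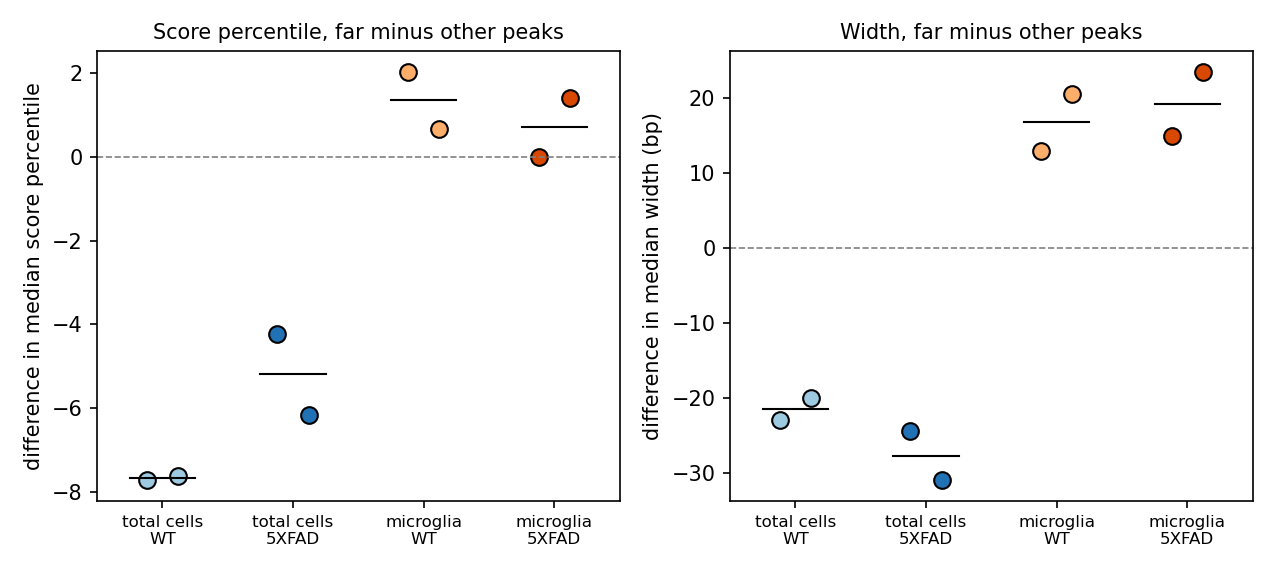
Median score percentile (left) and median width in bp (right) of far peaks minus those of the other peaks of the same list, by group. Each point is 1 library, each bar the mean of 2 and the dashed line 0; all 4 total cell libraries lie below 0 in both plots, and the microglia libraries lie at 0 to 2.03 percentile points and 13 to 23.5 bp.

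Within the space between genes, peaks lay closer to coding genes in microglia. The median distance from a far peak to the nearest coding gene was 61.7 and 63.1 kb in WT total cells, 57.4 and 57.2 kb in 5XFAD total cells, 54.5 and 55.1 kb in WT microglia, and 53.2 and 53.1 kb in 5XFAD microglia. The preparations did not overlap. Peaks more than 500 kb from any coding gene were 1.95% ± 0.467 of the far peaks of total cells and 1.23% ± 0.130 of those of microglia (SD, n = 4 each). No test was planned or run on distance. At the edge set by the rule, each list held 277 to 634 peaks 15 to 20 kb from a coding gene, just outside it, and 198 to 493 peaks 20 to 25 kb away, just inside it.

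The planned genotype tests could not pass 0.05. With genotypes permuted within preparations, the smallest p possible is 0.0556. The mean far share differed by -0.421 percentage points, 5XFAD minus WT (exact permutation test, p = 0.222), the number was higher by 483.5 (exact permutation test, p = 0.333) and the median width was larger by 50.25 bp (exact permutation test, p = 0.278; n = 4 and 4 in each). In total cells alone the share was lower in both 5XFAD libraries than in both WT libraries, with a mean difference of -0.850 points. In microglia the same difference was 0.00842 points and the genotypes overlapped. The median score percentile of far peaks was 2.23 points higher in 5XFAD total cells without overlap, and in microglia the genotypes overlapped. The median distances given above were lower in both 5XFAD libraries than in both WT libraries of either preparation, which was not tested.

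Most far regions were listed in few libraries. A peak of 1 library only made 3501 of the 8229 far regions (42.5%), compared with 37.3% of the regions of other peaks. A peak in all 8 libraries was found at 287 far regions (3.49%), against 7.2% of all 73331 merged regions. The far regions of all 8 libraries had a median width of 1446 bp, compared with 298 bp for those of 1 library. A merged region spans the peaks of all its libraries, so its width can only grow with their number. Of the regions of 1 library, 2259 were of a total cell library, whose peaks are narrower. The regions of all 8 libraries also overlapped annotated non-coding genes more often. Their overlap with a non-coding gene or pseudogene was 47.4%, against 27.8% for regions of 1 library, and 36 of the 287 (12.5%) overlapped a promoter window of a non-coding gene, against 53 of 3501 (1.51%). The part of width in these overlaps was not tested.

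**Figure D3:**
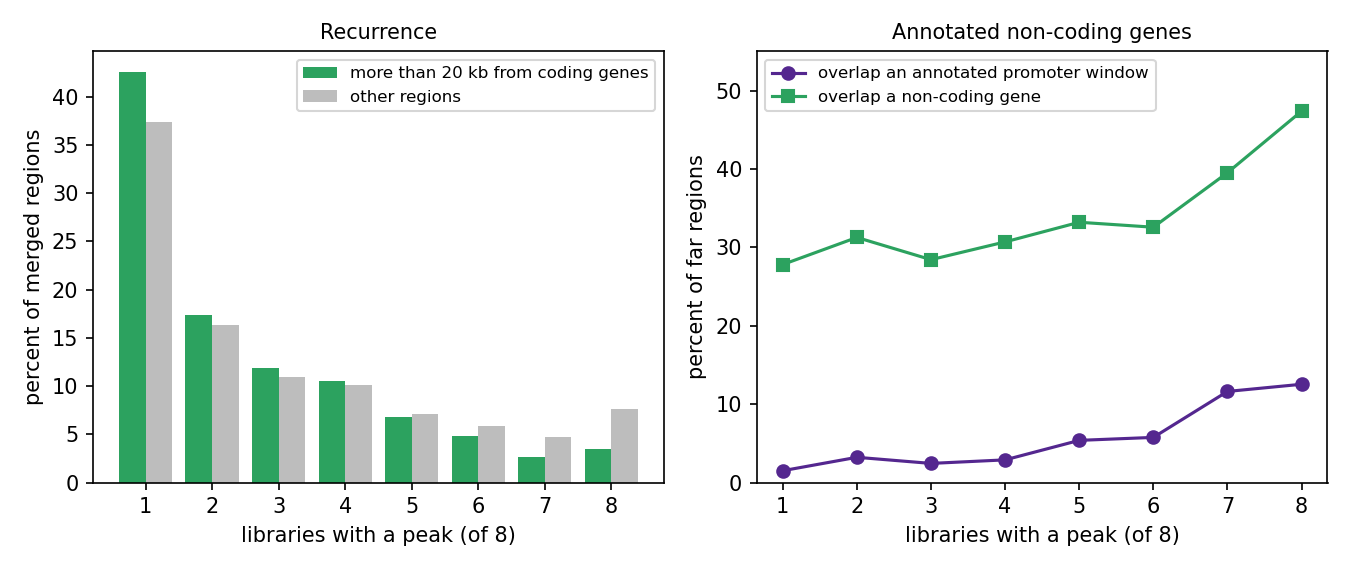
Left, percent of merged regions with a peak in 1 to 8 libraries, for far regions and for the regions of other peaks. Right, percent of far regions in each class that overlap a non-coding gene or one of its promoter windows; the promoter overlap is 1.51% at 1 library and 12.5% at 8 libraries.

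Libraries of the same preparation shared more far peaks on average than libraries of the same genotype. The Jaccard index, the bases covered by the far peaks of both libraries divided by those covered by either, averaged 0.408 over the 4 pairs of the same group, 0.320 over the 8 pairs of the same preparation and different genotype, and 0.126 over the 8 pairs of the same genotype and different preparation. Pairs that shared neither averaged 0.129. The ranges overlapped, because total cells 5XFAD 1 shared 0.227 with microglia WT 1 and 0.223 with microglia 5XFAD 1, against 0.213 and 0.191 with the WT total cell libraries. For other peaks the corresponding means were 0.433, 0.361, 0.186 and 0.187, so each mean was lower for far peaks. Replicates of microglia went against this, with 0.492 for far and 0.486 for other peaks in WT and 0.539 and 0.534 in 5XFAD, whereas replicates of total cells shared 0.312 and 0.362 in WT and 0.290 and 0.351 in 5XFAD.

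The strongest far region of all 8 libraries lay beside a ribosomal RNA sequence. It covered chr17:39843143-39846665 in GRCm38, between Esp15 and Esp38, and its end overlapped Rn18s-rs5, an annotated pseudogene of 18S ribosomal RNA. Its peak ranked 3 in both WT total cell lists, 3 and 5 in 5XFAD total cells, 1 in both WT microglia lists, and 2 and 1 in 5XFAD microglia, where that peak ended short of the pseudogene. Ribosomal DNA occurs in many near-identical copies, so that reads of other copies may have been placed here, and its level is uncertain for that reason.

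Next in mean score percentile among the regions of all 8 libraries was a 433 bp region in the non-coding gene Gm36876, at chr11:109011648-109012080, 60.9 kb from Axin2. Its percentile was 99.95 and 99.96 in WT total cells, 99.96 and 99.92 in 5XFAD total cells, 99.8 in both WT microglia libraries, and 97.3 and 98.7 in 5XFAD microglia. It lay among the highest 3% of every list, with a mean of 99.4 ± 0.9 (SD, n = 8). No peaks were screened here for artefact signal, such as that of repeats, so its part in narrow regions of high percentile is unknown. A 1716 bp region at chr10:130541608-130543323, 44.2 kb from the vomeronasal receptor gene Vmn2r87, had a mean percentile of 99.3 ± 0.3 (SD, n = 8) and overlapped no annotated gene. The region in 1700012D14Rik, chr7:111121745-111123378, lay 38.7 kb from Eif4g2, a translation initiation factor gene, and had a mean of 98.98 ± 0.9 (SD, n = 8).

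The promoter of Gm29998 printed above lay in a 1071 bp region of all 8 libraries, chr19:33391310-33392380, which also overlapped Rnls, annotated in this build as a transcribed pseudogene. Its percentile was 97.5 and 98.4 in WT total cells, 98.5 and 97.4 in 5XFAD total cells, 99.5 in both WT microglia libraries, and 99.5 and 99.04 in 5XFAD microglia. The 1418 bp region at the promoter of 4930578M01Rik, chr15:98984782-98986199, lay between the tubulin genes Tuba1a and Tuba1c, 31.3 and 43.7 kb away. It had percentiles of 92.1 and 91.6 in WT total cells, 98.0 and 95.2 in 5XFAD total cells, 99.4 and 99.8 in WT microglia, and 99.9 in both 5XFAD microglia libraries. All 4 microglia libraries lay above the total cell libraries at both promoters. Other regions of all 8 libraries were in Gm32605, 59.7 kb from the small GTPase gene Rap1b, at chr2:18607923-18609785, 62.6 kb from Commd3, and at chr7:110164064-110166504, 20.8 kb from Wee1, a kinase gene of the cell cycle.

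The order was the reverse at an X-linked gene. 4933407K13Rik, the lncRNA of the Dxz4 macrosatellite, which separates the megadomains of the inactive X chromosome, had a peak in all 8 libraries with percentiles of 98.0 and 93.4 in WT total cells, 99.2 and 97.9 in 5XFAD total cells, 80.3 and 92.1 in WT microglia, with 93.2 and 93.1 in 5XFAD microglia. All 4 total cell values lay above the 4 microglia values. Firre, a lncRNA that organises nuclear contacts of the X chromosome, had 4 far regions, of which the region at its promoter was listed in all 8 libraries with percentiles between 7.53 and 76.8. Jpx, which activates Xist, had 3 regions listed in 1 to 4 libraries. Xist itself was not overlapped by a far region. Dxz4 is a tandem repeat, so its level carries the same uncertainty as that of ribosomal DNA. The X chromosome as a whole held 132 of the 8229 far regions (1.60%), and its share of other regions was not counted. Far peaks on it numbered 29 to 48 in total cell and 53 to 97 in microglia libraries, out of 1971 to 3080 and 2229 to 4126 far peaks in all. This difference was not tested.

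Far promoters with peaks in more libraries held more CG dinucleotides. The 4175 far promoters with no peak had a median of 3 CG dinucleotides and 46.0% G and C, and the 27 promoters of 23 genes with a peak in all 8 libraries had a median of 14 and 57.3%. The motif GGGCGG, the core of the binding site of Sp1, was found on either strand in 14 of those 27 (51.9%), against 7.82% of all 4486 far promoters. CCAAT was found in 14.8% of the 27 and in 38.7% of all, TATAAA in 14.8% and 18.5%, and TGACGTCA, the cyclic AMP response element, in 3 of the 27 (11.1%) and 0.624% of all. Those 3 windows belong to Gm32287 and Gm14321, lie within chr2:167777241-167778177 and have the same percentiles. They are a single locus and not independent. GGGCGG itself contains a CG, and a match describes letters only. In the promoters shown above, GGGCGG was found in those of Gm29998, 4933407K13Rik and Gm34507.

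The 24 promoters of 21 genes whose windows were marked by all microglia libraries alone were closer to the unmarked promoters in composition. They held a median of 4 CG dinucleotides and 47.8% G and C, and GGGCGG was found in 1 of 24 (4.17%). GAGGAAGT, a form of the binding site of the myeloid factor PU.1, was found in 2 of 24 (8.33%), against 3.74% of all far promoters. TGANTCA, the site of AP-1 factors, was found in 3 of 24 (12.5%), against 11% of all. Several windows belong to the same gene or overlap, so they are not independent. Each library marked 78 to 108 of the 4486 far promoters in total cells and 123 to 205 in microglia.

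Long non-coding RNA genes took up most of the annotated overlap. Of the 8229 far regions, 2500 (30.4%) overlapped a non-coding gene or pseudogene and 5729 overlapped none, while such genes cover 13.6% of the bases of the far territory. lncRNA genes alone accounted for 2336 regions (28.4%). Of the 4778 lncRNA genes whose whole span is far from coding genes, 1002 (21.0%) held a far region. Annotated pseudogenes numbered 4685 in this territory, and 61 (1.30%) held a far region. Of the 388 V segments of antigen receptor loci, 1 held a region. The share of far peaks that overlapped a non-coding gene was 31.0% and 30.7% in WT total cells, 31.6% and 33.5% in 5XFAD total cells, 33.6% and 33.1% in WT microglia, and 32.4% in both 5XFAD microglia libraries. The means, 32.9% and 31.7%, differed by 1.17 percentage points with overlap between the preparations (exact two-sided permutation test, p = 0.143, adjusted p = 0.245, n = 4 and 4). Without total cells 5XFAD 2 the difference was 1.76 points (exact permutation test, p = 0.0286, n = 4 and 3).

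Pvt1, a lncRNA gene of 222 kb downstream of Myc, chr15:62037986-62260215, held 24 far regions. In total cells, 2 and 3 of them had a peak in WT and 8 and 2 in 5XFAD. In microglia, 12 and 13 had a peak in WT and 13 and 19 in 5XFAD. The preparations did not overlap, with 14.2 ± 3.2 regions in microglia and 3.75 ± 2.87 in total cells (SD, n = 4 each). Of the 24 regions, 4 were of microglia only, against 5.64% of all far regions. All far peaks numbered 1971 to 3080 in total cell and 2229 to 4126 in microglia libraries. Like Morrbid and Mir100hg below, Pvt1 was chosen with earlier results of these data known. The region at the start of the gene, chr15:62037682-62039586, had percentiles of 84.7, 41.5 and 79.3 in 3 total cell libraries and 84.5, 81.5, 78.0 and 91.3 in microglia, so the preparations overlapped there. Further into the gene, chr15:62151937-62153430 had a peak in all 4 microglia libraries, with percentiles of 62.5, 70.5, 73.2 and 90.5, but none in total cells.

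Morrbid, a lncRNA that controls the survival of short-lived myeloid cells by repressing Bcl2l11, spans chr2:128298663-128429351 and held 15 far regions. None had a peak in WT total cells, 4 and 3 had one in 5XFAD total cells, 6 and 8 in WT microglia, with 8 and 14 in 5XFAD microglia. The preparations did not overlap, and in total cells the peaks were listed in the 5XFAD libraries only. Of the 15 regions, 3 were of microglia only, against 5.64% of all far regions. The region at its 5′ end, chr2:128427994-128429431, had percentiles of 43.0 and 27.7 in 5XFAD total cells, 28.0 and 12.7 in WT microglia, with 64.6 and 50.7 in 5XFAD microglia. Of these peaks, only those of microglia WT 1 and 5XFAD 1 reached the 300-base promoter window. At Malat1, an abundant nuclear lncRNA, a region at chr19:5802601-5804809 had a peak in all 4 microglia libraries and in total cells 5XFAD 2, but only the peak of microglia 5XFAD 2 overlapped the gene.

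Mir100hg, chr9:41376526-41615185, had the reverse pattern over 16 far regions. In WT total cells 9 and 7 of them had a peak, and in 5XFAD total cells 12 and 7. Microglia had 1 in each WT library and none in either 5XFAD library. Of the 16 regions, 2 were of total cells only, against 1.49% of all far regions. The region at Mir100 had a peak in 2 total cell libraries, at percentiles of 30.5 in total cells WT 1 and 55.7 in total cells 5XFAD 1, and only the latter peak overlapped the miRNA gene. The 631 bp region over the Mir100hg promoter, chr9:41376050-41376680, had percentiles of 73.6 and 43.1 in WT and 76.0 and 48.0 in 5XFAD total cells. Mir99ahg, the host transcript of a second cluster of the same miRNA families, had 22 regions that were shared between the preparations, with 5 and 8 in WT and 11 and 6 in 5XFAD total cells, and 4 and 6 in WT and 5 and 9 in 5XFAD microglia. The order of its means, 6.0 in microglia and 7.5 in total cells, turned round when peaks under 300 bp were left out, to 1.75 regions more in microglia. That minimum falls mainly on the narrower peaks of total cells.

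**Figure D4:**
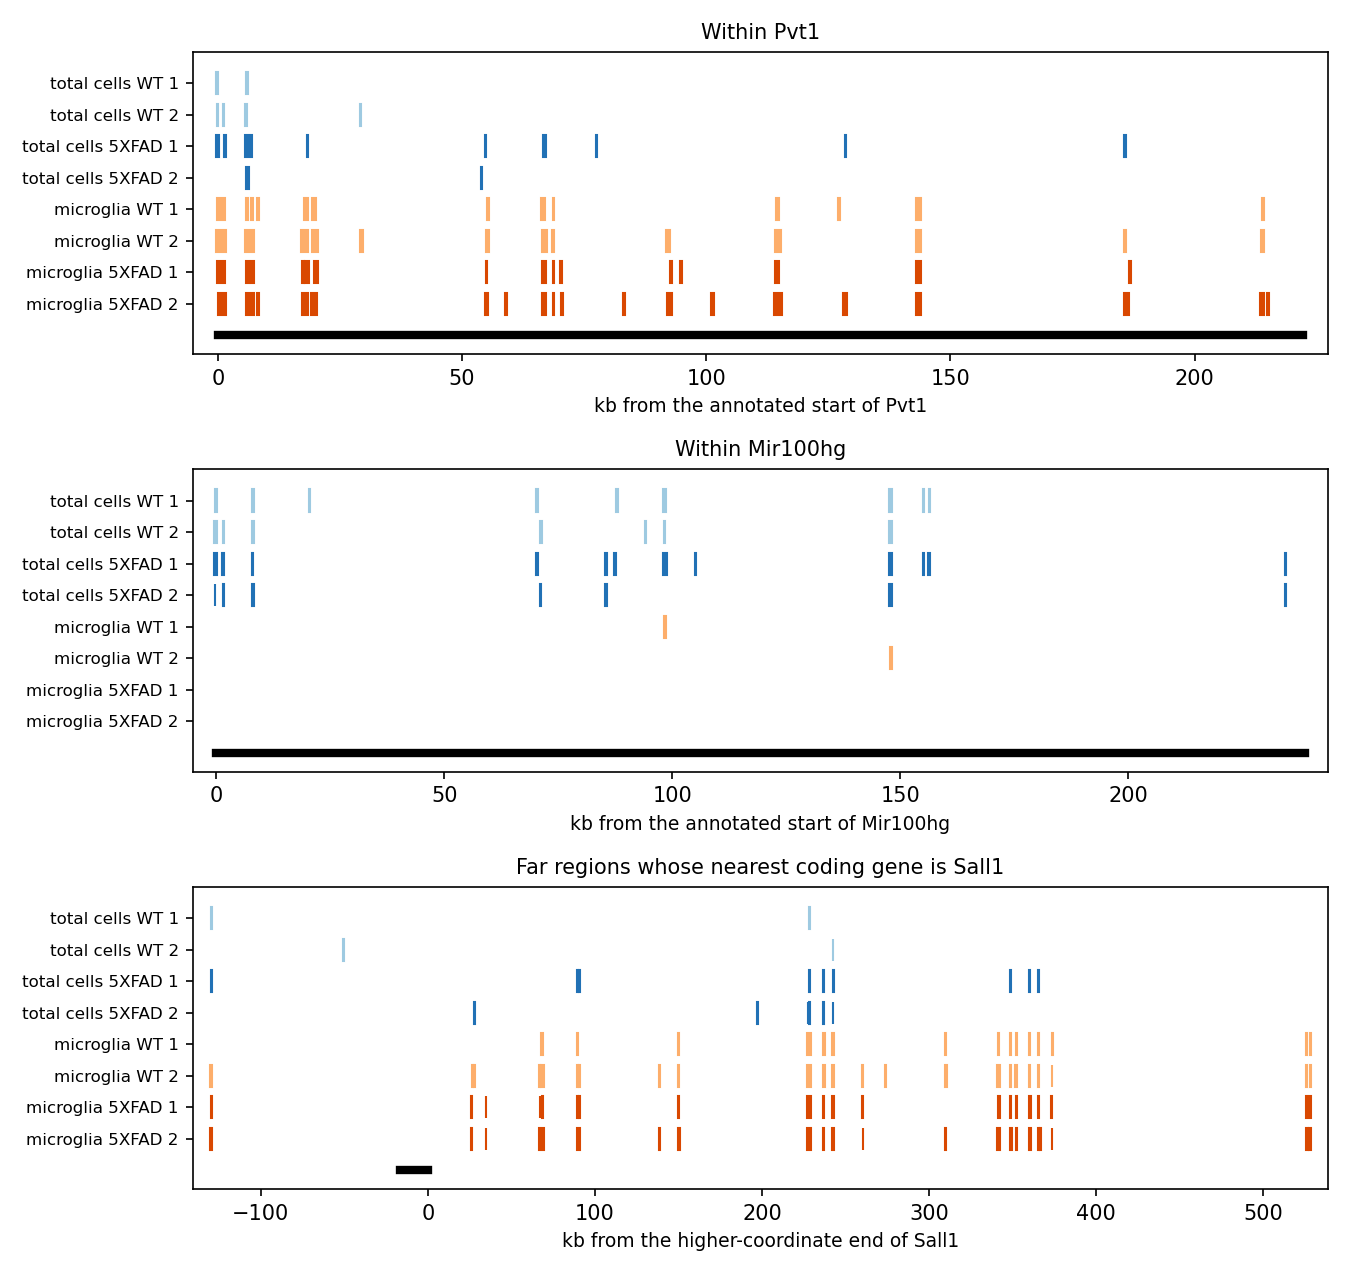
Far peaks of each library within Pvt1, within Mir100hg and nearest to Sall1, as bars at their distance in kb from the annotated start of the gene or, for Sall1, from its higher-coordinate end. The 8 libraries are on the y axis, the bars are peaks, several of which can fall in 1 merged region, and the black bar is the gene; microglia hold 12 to 19 of 24 regions in Pvt1 and 0 to 1 of 16 in Mir100hg, and total cells 2 to 8 and 7 to 12.

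Some far regions lay near each other in stretches, which were not compared with those of other regions or of random positions. Chained at distances up to 10 kb, the 8229 regions formed 4997 stretches, of which 3348 were a region alone and 194 held at least 5 regions. The longest by number had 25 regions over 88.7 kb, chr6:31055640-31144312, from beside Mir29b-1 into Lncpint, a lncRNA gene induced by p53. It lay 96.6 kb from Klf14 and 254.5 kb from Mkln1. Of the 27 far regions in Lncpint, 5 and 8 had a peak in WT and 8 and 9 in 5XFAD total cells, and 9 and 15 in WT and 9 and 18 in 5XFAD microglia, with overlap between the preparations. The widest far region, of 3688 bp at chr2:173352453-173356140 in Gm36911, 75.7 kb from Pmepa1, had peaks in both 5XFAD total cell libraries, at percentiles of 81.5 and 36, and in all 4 microglia libraries, at 81.9 to 93.0.

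The region over Mir29b-1, chr6:31062768-31063618, had percentiles of 72.7 and 73.2 in WT microglia, 12.2 and 59.8 in 5XFAD microglia and 9.13 in total cells WT 2, and no peak in the other total cell libraries. miR-29 is known for repressing extracellular matrix genes and the DNA methyltransferases. The region over Mirlet7b, of the let-7 family that restrains growth genes, had a peak in total cells 5XFAD 1 at percentile 64.5 and in microglia 5XFAD 2 at 11.6, and only the former overlapped the gene. It belonged to a stretch of 18 regions between Wnt7b and Ppara. Mir181a-1 and Mir181b-1 shared a region with a peak in total cells WT 1 alone, 96.1 kb from Ptprc. Of the 100 non-coding genes in a list drawn up for this tissue, 91 matched the annotation and 46 were far from coding genes. Of these, 15 held a region, namely 11 of 17 lncRNAs and 4 of 29 miRNA genes. Over all far genes, 21.0% of lncRNA genes and 2.86% of miRNA genes held one. The list was chosen with earlier results of these data known, and gene length was not taken into account.

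Regions in all 4 microglia libraries but in no list of total cells numbered 464 (5.64% of far regions), against 4.51% of all merged regions and 4.36% of those of other peaks. The reverse pattern, all 4 total cell libraries and no microglia library, was found at 123 far regions (1.49%), against 1.34% of all merged regions. The total cell share lay near the background, and the difference of the microglia share from it was not tested. Without total cells 5XFAD 1 the microglia count was 742, without microglia WT 1 it was 766, and without total cells 5XFAD 2 the total cell count was 279. The microglia regions were wider, with a median of 1111.5 bp compared with 581 bp.

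**Figure D5:**
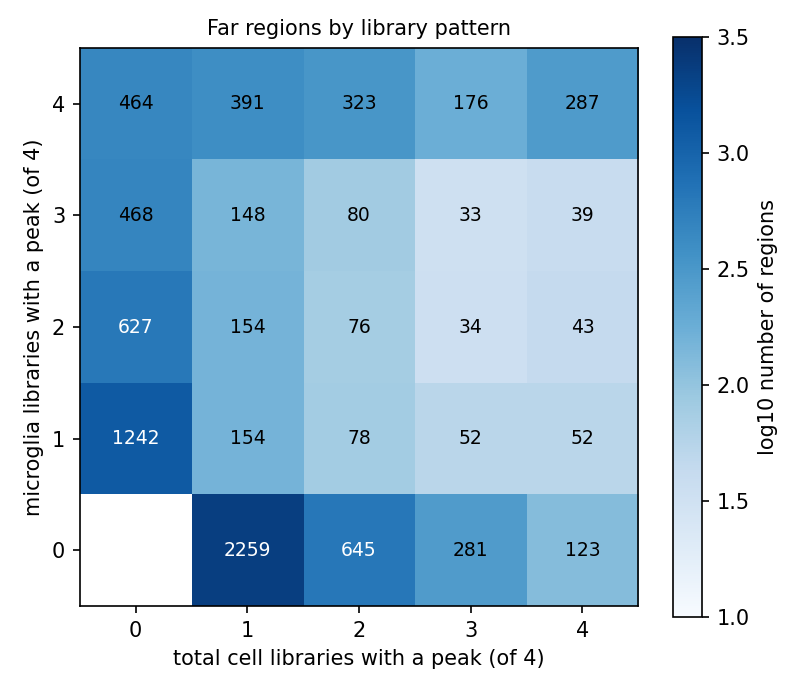
Number of far regions by how many of the 4 total cell libraries (x axis) and of the 4 microglia libraries (y axis) had a peak there, with the colour on a log10 scale. The upper left cell holds the 464 regions of microglia only, the lower right cell the 123 of total cells only, and the upper right cell the 287 of all 8 libraries.

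Sall1, a transcription factor gene that maintains the identity of microglia, was the nearest coding gene of more far regions than any other gene in the microglia list. It was nearest to 27 far regions, 25.6 to 528 kb away. Of these, 2 had a peak in each WT total cell library, 8 and 5 in 5XFAD total cells, 15 and 22 in WT microglia, with 19 and 22 in 5XFAD microglia. The preparations did not overlap, with 19.5 ± 3.32 regions in microglia and 4.25 ± 2.87 in total cells (SD, n = 4 each), and 7 of the 27 were of microglia only, against 5.64% of all far regions. The locus was chosen with its values known, and all far peaks numbered 1971 to 3080 in total cell and 2229 to 4126 in microglia libraries. The region with the highest percentiles of these 7, chr8:89384969-89386725, lay 340.8 kb from Sall1 with percentiles of 92.9 and 96.0 in WT and 85.9 and 90.4 in 5XFAD microglia. The nearest gene along the chromosome need not be the gene that a region acts on.

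The strongest region of microglia only lay in Gm20763 at chr13:120195465-120196829, with percentiles of 98.2 and 99.2 in WT and 88.9 and 96.3 in 5XFAD microglia. The others with high mean percentiles lay 79.2 kb from Arf6, a GTPase gene of membrane traffic, 70.5 kb from Trib1, a pseudokinase gene that acts on C/EBP factors, 112.0 kb from Suclg2, and, as a pair in Gm10790, 33.0 and 35.9 kb from Adtrp. The region near Trib1, chr15:59727586-59729061, had percentiles of 90.2 and 95.4 in WT and 88.3 and 94.8 in 5XFAD microglia. A region 186.4 kb from Sgk1, a kinase gene induced by stress hormones, had 92.7 and 93.2 in WT and 77.1 and 93.7 in 5XFAD microglia. In all 3 regions given by value the lowest percentile was that of microglia 5XFAD 1. At Gm20763 both WT values lay above both 5XFAD values, and near Trib1 and Sgk1 the genotypes overlapped.

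Among regions of total cells only, the strongest lay in Gm33838 at chr9:35305222-35305534, 29.3 kb from Rpusd4. It had percentiles of 99.8 and 99.6 in WT and 96.5 and 96.7 in 5XFAD total cells. It was only 313 bp wide and, like the region in Gm36876, was not screened for artefact signal. A 584 bp region in the lncRNA gene Gm17750, chr13:84058945-84059528, lay 162.8 kb from Tmem161b and 391.9 kb from Mef2c, a transcription factor gene of neurons and microglia, and had 98.8 and 99 in WT and 90.3 and 94.2 in 5XFAD total cells. A region 29.1 kb from Apol7a and 50 kb from Rbfox2, a splicing factor gene, had 99.6 and 99.2 in WT and 86.3 and 94.4 in 5XFAD. A region 581.1 kb from Klf4, chr4:56113617-56114197, had 94.3 and 98.5 in WT and 90.5 and 84.1 in 5XFAD. In each of these 4 regions both WT values lay above both 5XFAD values, as in 6 of the 10 strongest regions of total cells only. This order was not counted over all 123 regions of total cells only, and it was not tested.

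Some genes that mark astrocytes and neural progenitors, chosen here for their many regions, were the nearest coding genes of far regions that total cells held and microglia mostly lacked. Gja1, the main gap junction gene of astrocytes, was nearest to 16 regions, of which 9 and 9 had a peak in WT and 6 and 6 in 5XFAD total cells, and 0 and 1 in WT and 1 and 2 in 5XFAD microglia. Sox9, an astrocyte transcription factor gene, was nearest to 8, of which 4, 3, 3 and 2 had a peak in the total cell libraries and none in microglia. Sox2, a factor of progenitor and glial cells, was nearest to 23, of which 11 and 4 in WT and 6 and 7 in 5XFAD total cells had a peak, against 0 to 1 in microglia. The 2 preparations did not overlap at any of these 3 loci. Most regions of Sox2 and Sox9 had a peak in 1 total cell library alone, as did many at Gja1, while 42.5% of all far regions were of 1 library. Only 1 region at Gja1, 1 at Sox9 and 0 at Sox2 had a peak in all 4 total cell libraries and in no microglia library. The astrocyte genes Nfia and Slc1a3 did not follow them, with 0 to 1 and 1 to 2 regions in total cell libraries and 1 to 3 and 1 to 3 in microglia libraries. Runx1 and Cebpb, transcription factor genes of myeloid cells, had the order of Sall1, with 5 to 13 of 16 and 7 to 11 of 14 regions in microglia libraries and 1 to 4 and 2 to 6 in total cell libraries. Ptprc, the gene of the leukocyte marker CD45, did not follow it, with 4 to 6 of 19 regions in microglia and 6 to 10 in total cells, and neither did Mef2c, with 2 to 6 of 15 in microglia and 2 to 5 in total cells.

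Over whole marker lists, 13 of 31 microglia genes were the nearest coding gene of at least 1 far region. They took 112 regions, of which 19 to 35 had a peak in each total cell library and 41 to 73 in each microglia library, and 15 of the 112 (13.4%) were of microglia only, against 5.64% of all far regions. Without Sall1, 8 of 85 (9.41%) were of microglia only, and the counts, 16 to 27 in total cell and 26 to 51 in microglia libraries, overlapped. Siglech had a region with a peak in all 4 microglia libraries but in no list of total cells. The 7 of 13 astrocyte genes took 45 regions, with 9 to 22 in total cell and 3 to 9 in microglia libraries. The 4 of 14 oligodendrocyte lineage genes took 29, with 7 to 15 and 0 to 3, but 23 of these are the regions of Sox2 already given, and the other 6 had 3 to 4 in total cell and 0 to 2 in microglia libraries. The 6 of 24 neuron genes took 15, with 4 to 7 and 3 to 8. The 5 of 13 vascular genes took 20, with 2 to 5 and 3 to 8, so the preparations overlapped there. Of 24 genes of disease-associated microglia, 8 took 18 regions, with 1 to 6 in total cell and 4 to 13 in microglia libraries, of which 1 was of microglia only. Other leukocyte genes took 5 regions, with 1 to 2 and 1 to 4, and genes of other tissues 3, with 0 to 2 and 0 to 1.

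Among microglia, 489 of the 4921 far regions listed there (9.94%) had a peak in both 5XFAD libraries and in neither WT library, against 9.16% of all merged regions. The reverse was found at 98 (1.99%), against 1.84%. These shares lay near the background, and the 5XFAD lists are longer by number of peaks on average. Without microglia 5XFAD 1 or microglia WT 2 the 5XFAD count was 1367 and 1002, and without microglia WT 1, WT 2 or 5XFAD 2 the WT count was 582, 174 and 287. When each list was trimmed to its 22274 highest-scoring peaks, the counts were 280 and 194.

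The 5XFAD-only region of microglia with the highest percentiles lay 36.5 kb from Osbpl8, a lipid transfer protein gene, at chr10:111126846-111128242, with 99.1 and 98.5 in the 5XFAD microglia libraries. It also had a peak in total cells 5XFAD 1, at percentile 32.2. A region in Nlrp1c-ps, a pseudogene of the inflammasome gene family, 41.9 kb from Nlrp1b, had 84.7 and 92.1. In both regions no WT library of either preparation had a peak.

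The WT-only region of microglia with the highest percentiles, chr3:32637868-32638939, lay 21.2 kb from the G protein subunit gene Gnb4, with 93.7 and 96.0 in WT microglia and 30.5 and 7.1 in WT total cells. It was the only far region with a peak in all 4 WT libraries and in no 5XFAD library, against 0.0245% of all merged regions with that pattern. The converse, all 4 5XFAD libraries and no WT library, was found at 27 far regions (0.328%), against 0.3%. The one with the highest mean percentile, chr14:99009770-99011226, lay 23.3 kb from Mzt1 and had 88.2 and 92.6 in 5XFAD total cells and 93.4 and 95.8 in 5XFAD microglia. Next came a region in Hectd2os, 48.4 kb from Ppp1r3c, with 61.1 and 65.9 in total cells and 73.9 and 93.3 in microglia. Without total cells 5XFAD 2 the count of 27 was 89, and without microglia WT 1 the count of 1 was 14.

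In total cells, 426 of 5428 far regions (7.85%) had a peak in both 5XFAD libraries and in neither WT library, against 7.97% of all merged regions, and 379 (6.98%) had the reverse, against 4.81%. The WT share was 4.55% among the regions of other peaks, and that difference was not tested. The merged regions of the 2 sets differed in width, with medians of 1060.5 bp for 5XFAD only and 378 bp for WT only. A merged region spans the peaks of all 8 libraries, so these widths include the wider peaks of microglia and do not describe total cell peaks alone. The sets differed in how often microglia had a peak there, which is therefore not separate from the width. Of the 426, 238 (55.9%) had a peak in all 4 microglia libraries, whereas 8 of the 379 (2.11%) did, compared with 19.9% of all far regions. Leaving out each total cell library in turn gave 32.8% to 54.7% and 2.33% to 6.91%. The corresponding shares over all merged regions were 46.9% and 5.70%, so this was not particular to regions far from genes. Without total cells 5XFAD 1 or 2 the 5XFAD count was 889 and 1574, and without total cells WT 1, WT 2 or 5XFAD 1 the WT count was 1052, 1201 and 608.

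Among the 5XFAD-only regions of total cells was chr16:76109988-76111436, 200.7 kb from Samsn1 and 176.0 kb from Nrip1, with percentiles of 95.7 and 91.7 in 5XFAD total cells, 98.8 and 99.8 in WT microglia, with 99.9 and 99.7 in 5XFAD microglia. It was absent from both WT total cell lists although it stood near the top of all the others. A region in the lncRNA gene 2610307P16Rik, chr13:28511892-28513708, 435.2 kb from Sox4, had the same pattern, with 96.6 and 93.1 in 5XFAD total cells and 97.0 to 98.8 in microglia. Samsn1 encodes an adaptor protein of leukocytes, and Sox4 a transcription factor of progenitor cells.

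The 5 WT-only regions of total cells with the highest percentiles had a peak in 0 to 2 microglia libraries. The region at chr2:18821030-18822223, 20 kb from Pip4k2a, a lipid kinase gene, had percentiles of 99.3 and 99.03 in WT total cells and no peak in the other 6 libraries. Another in A330033J07Rik, chr13:48125342-48125667, 135.4 kb from the astrocyte and progenitor gene Id4, had 92.5 and 95.5 and likewise no other peak. A region 39.2 kb from Alpl and 26.0 kb from Ece1, an endothelin-converting protease gene, had 96.9 and 94.7 in WT total cells and 10.6 in microglia 5XFAD 2. The region at chr13:4771302-4771752, with 99.1 and 98.3 in WT total cells, had 67.5 in microglia WT 2 and 15.7 in microglia 5XFAD 2.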

How the data were processed

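H4K12la CUT&Tag peaks of 8 libraries were used, with groups and replicate numbers as titled. The submitters' processing notes name fastp 0.19.6, deepTools and Bowtie2, with build GRCm38 (mm10). Which peak caller, threshold or control was used is not given in the sources used here. For each library a list was deposited by the authors with a score per peak whose unit is not stated. That deposited score, 20 or more in all lists, served only for percentiles and filters within a list. The lists hold no read counts, so no interval or detection limit was computed.

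Distances were measured with Python 3.11.15, numpy 2.4.6 and pandas 2.3.3 to the gene spans of a RefSeq table of GRCm38.p6, which gives no strand, and starts were printed counted from 1. Exon structure was not used here, nor any sequence of the regions themselves. Of the 8229 far regions, 40 were also overlapped by a peak that is not far. A region was called for a group when every library of it and none of the other had a peak. Exact permutation tests over libraries were used, tested on simulated data, and adjusted over 12 tests by Benjamini-Hochberg. Genotypes were permuted within preparations. Alternatives were other distances, genes of all types, peak midpoints, score and width minimums, equal list lengths, other merging rules, leaving out each library and permuting within replicate numbers.

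The members and gene lists were chosen with earlier results of these data known. Named regions were the 10 of all 8, of microglia only and of total cells only, and the 5 of each genotype set, with the highest mean score percentile, plus the widest 5, non-coding genes of a list, miRNA genes, genes and nearest genes with many regions, and promoters. Some of these are not described. The motifs, the loci by nearest gene and 2 tests of far minus other peaks between preparations were added after values were seen.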

Additional observations from a re-analysis of the deposited data

Results flagged for a closer look

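The difference between far and other peaks of the same list had opposite signs in the 2 preparations. It was 42.6 bp higher in microglia than in total cells for median width and 7.46 points higher for median score percentile (exact two-sided permutation test, n = 4 and 4, p = 0.0286, adjusted p = 0.0686 for each). Every microglia library lay above every total cell library in both measures.

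The share of far peaks that overlapped a non-coding gene moved in opposite directions with genotype. It was lower in 5XFAD microglia than in WT microglia, by -0.940 percentage points, and higher in 5XFAD than in WT total cells, by 1.69 points, and in each preparation both libraries of a genotype lay on the same side. This difference between preparations was not tested.

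Peaks outside chromosomes 1 to 19 and X, which the comparisons did not use, were listed in every library, with the highest number, 48, in total cells 5XFAD 1.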

How the results depend on the processing

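A longer list may reflect deeper sequencing, depth is unknown, and 4 libraries against 4 give no p under 0.0286. No test passed 0.05 after adjustment. Same-numbered libraries did not deviate together, with correlations from 0.0002 to 0.039, so the numbers are not known to pair them. With the replicate block, the differences between preparations kept their values in share (0.542), width (365.5), score percentile (6.44) and far minus other width (42.6) and percentile (7.46), each with p = 0.0556 by an exact permutation test, the smallest that the block allows.

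The difference in number between preparations became 189 with lists of equal length and 1838 with peaks of at least 300 bp (exact permutation test, p = 0.0286 in each). The 300 bp minimum falls mainly on total cells, whose median far widths were 269 to 343.5 bp. In microglia the narrowest far peak of each list was already 273 to 289 bp. The separation under that minimum therefore follows from the widths, and no conclusion on number is drawn from it. The same limit holds for every result given with peaks of at least 300 bp. The difference in share turned to -0.0799 at 50 kb and -0.0928 with genes of all types avoided, that in non-coding share to -0.460 with peaks of at least 300 bp, and the genotype difference in number to -81 with lists of equal length. Far minus other width turned to 2.19 bp at 10 kb. Far minus other percentile, -2.70 with p = 0.125, became -3.57 at 50 kb, -4.82 with genes of all types avoided and -4.41 with the higher-scoring 50% of peaks (exact sign-flip tests, p = 0.0312, 0.00781 and 0.0156). By locus, the microglia mean minus the total cell mean turned to 1.75 regions in Mir99ahg and 0.50 at Ptprc with peaks of at least 300 bp, and to 0.25 at Ptprc with a score of at least 50. The cause was not tested for these.

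Stricter rules leave fewer regions. Counts at 50 kb and with genes of all types avoided were 258 and 137 for microglia only, 75 and 45 for total cells only, 264 and 167 for 5XFAD only and 64 and 29 for WT only among microglia, and 235 and 127 for 5XFAD only and 224 and 151 for WT only among total cells. With the higher-scoring 50% of peaks they were, in the same order, 285, 67, 252, 61, 224 and 165. A score of at least 50 gave 47 for total cells only, 54 for WT only among microglia, and 240 and 160 for 5XFAD and WT only among total cells. Peaks of at least 300 bp gave 45 for total cells only and 248 and 142 for 5XFAD and WT only among total cells. Lists of equal length gave 280 and 194 for 5XFAD and WT only among microglia, and counting a library only where its peaks covered 25% of a region gave 697 for microglia only.

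Leaving out 1 library at a time, the differences between preparations ranged from 417 to 1049 in number, 0.284 to 0.690 in share, 335 to 389 bp in width, 6.003 to 7.11 in percentile and 0.8292 to 1.76 in non-coding share. The share had p = 0.143 to 0.171 (exact permutation tests) without any 1 microglia library. Genotype differences ranged from -0.595 to -0.247 in share, 205.75 to 761.25 in number and 21.9 to 78.6 bp in width. Far minus other width ranged from -7.14 to 0.643 bp and percentile from -3.38 to -1.99, and their differences between preparations from 40.5 to 44.3 bp and 7.03 to 8.20. Counts ranged from 472 to 766 for microglia only, 126 to 279 for total cells only, 544 to 1367 and 109 to 582 for 5XFAD and WT only among microglia, and 539 to 1574 and 439 to 1201 for 5XFAD and WT only among total cells.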
